A study of Capra hircus with 2 samples.

Results

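The miRNAs miR-451, miR-144 and miR-486, which are abundant in red blood cells, were measured in the mammary gland of dairy goats at 2 stages, the dry period and peak lactation. They are 3 of the 346 conserved miRNAs that the study listed. The 3 were chosen by name, as miRNAs of red blood cells, with their change between the stages already known from these libraries, so the change itself is given as a description. A read was assigned to a miRNA when its sequence was identical to the listed sequence over its first 18 nt or more, whatever its 3′ end.

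Each stage was represented by 1 library, called D for the dry period and P for peak lactation, made from RNA pooled from the mammary glands of 3 Xinong Saanen dairy goats aged 2.5 years, so that neither library holds an estimate of the spread between goats. The labels give 75 days after lambing for the dry period and 320 days for peak lactation. The study's text pairs these days with the stages the other way round, and the stages were taken here from the sample titles. The total was 14851375 clean reads for D and 15712891 for P. All conserved miRNAs together accounted for 61.1% of D and 14.4% of P. A miRNA with 3 reads would stand at 0.202 reads per 1000000 clean reads (RPM) in D and 0.191 RPM in P. No test between the stages was possible with 1 library each. All intervals are 95% exact intervals that cover the counting of reads only. The samples were pieces of whole gland, in which fewer cells of a type and less RNA per cell cannot be told apart.

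A miRNA precursor is usually cut by Dicer into a short duplex, of which 1 strand is loaded into an Argonaute protein. miR-451 is the known exception: its hairpin is too short for Dicer, is cut on the 3′ arm by Argonaute-2 itself and is then trimmed from the 3′ end, which leaves a ladder of molecules with a common 5′ end. miR-144 and miR-451 are made from 1 primary transcript that is switched on by GATA-1 in developing red cells, and miR-144 follows the Dicer route. miR-486 lies in an intron of the ankyrin gene ANK1 and is abundant in red cells and in skeletal and heart muscle. Mammalian red cells lose their nucleus but keep a large store of these miRNAs, so a tissue that holds blood contributes them to a total RNA sample.

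The mature sequences listed by the study are shown here because every count was anchored on them. Capitals mark the seed, bases 2 to 8, which pairs with target messenger RNAs.
miR-451: aAACCGUUaccauuacugaguuu
miR-144: uACAGUAUagaugauguac
miR-486: uCCUGUACugagcugccccga

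The listed lengths are 23 nt for miR-451, 19 nt for miR-144 and 21 nt for miR-486. The sequences differ in composition: G and C made up 34.8% of miR-451, 31.6% of miR-144 and 61.9% of miR-486. No other listed miRNA had the same bases 2 to 8 as any of the 3. miR-101 shared bases 2 to 7 with miR-144, and was far more abundant, with 58219 reads in D and 31101 in P. In the RefSeq annotation of the goat assembly ARS1.2, MIR451 and MIR144 were neighbouring genes, with ERAL1 before MIR451 and FLOT2 after MIR144. A gene for miR-486 was not matched by symbol in that table.

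The precursor of chi-miR-451 was also given by the authors. Capitals mark the mature miRNA, which takes up positions 16 to 38 of 71 counted from the 5′ end. It is shown because the bases after position 38 say which longer reads continue along the hairpin.
miR-451 hairpin: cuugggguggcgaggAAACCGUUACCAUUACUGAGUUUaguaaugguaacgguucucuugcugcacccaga

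miR-451 was the most abundant of the 3 in both libraries, and its level was higher at peak lactation. In D, 762 reads of miR-451 were counted, or 51.3 RPM (47.7 to 55.1). In P, 1696 reads were counted, or 107.9 RPM (102.9 to 113.2). The intervals of the libraries were far apart. The level at peak lactation was 2.10 times that of the dry period, a log2 fold change of 1.07 (0.95 to 1.20). Among the 346 conserved miRNAs, miR-451 ranked 117 by reads in D and 66 in P.

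miR-144, the partner of miR-451 on the primary transcript, was the least abundant of the 3 and differed between the stages by nearly the same factor. It had 253 reads in D, or 17.0 RPM (15.0 to 19.3), and 557 reads in P, or 35.4 RPM (32.6 to 38.5). The log2 fold change was 1.06 (0.84 to 1.28), a ratio of 2.08. Its rank by reads was 145 in D and 93 in P.

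miR-486 was nearly level between the stages when clean reads were the denominator. It had 617 reads in D, or 41.5 RPM (38.3 to 45.0), and 725 reads in P, or 46.1 RPM (42.8 to 49.6). Here the intervals overlapped, and the log2 fold change was 0.15 (-0.01 to 0.31), a ratio of 1.11. Its rank by reads was 121 in D and 87 in P.

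**Figure D1:**
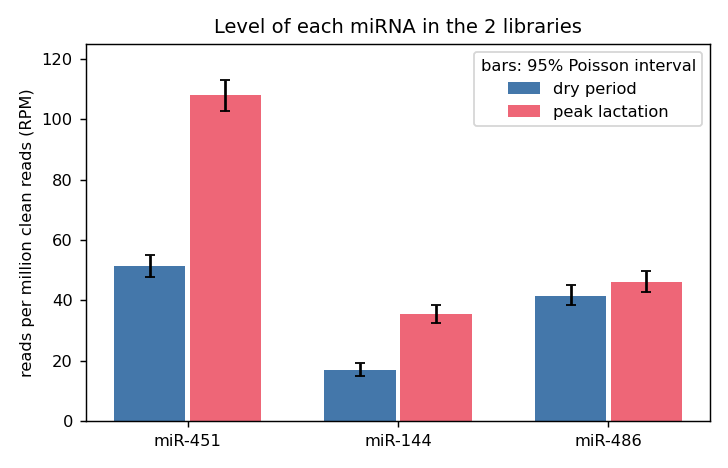
Level of miR-451, miR-144 and miR-486 in reads per 1000000 clean reads (RPM, vertical axis) in D (dry period, blue) and P (peak lactation, red), with 95% Poisson intervals of the read counts. The bars of miR-451 (51.3 and 107.9 RPM) and of miR-144 (17.0 and 35.4 RPM) are well separated, while those of miR-486 (41.5 and 46.1 RPM) have overlapping intervals.

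On the RPM scale, miR-451 and miR-144 were among the few conserved miRNAs that were higher at peak lactation. Of the 257 miRNAs with at least 1 RPM in one of the libraries, 3 had a log2 fold change above 1, which is 1.17%, and 181 had one below -1, which is 70.4%. The 3 were miR-2887, at 2.34, miR-451 and miR-144. The next was miR-2478 at 0.99, just below the limit, with 714 reads in D and 1497 in P. The median of all 257 was -1.44, with quartiles of -2.15 and -0.92, and 10 miRNAs had a value above 0. miR-486 was the last of these 10. Relative to that median, the log2 fold change was 2.51 for miR-451 and 1.59 for miR-486, and that of miR-144 was again 0.016 below that of miR-451.

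The miRNAs nearest to miR-451 in log2 fold change, among those with at least 100 reads over both libraries, were miR-144, miR-2478 and miR-885. miR-144 differed from miR-451 by 0.016. For miR-885 the log2 fold change was 0.66, from 55 reads in D and 92 in P. Nearest to miR-486 were miR-146b, miR-141 and miR-452, with log2 fold changes of -0.03, -0.09 and -0.09. The likeness rests on 2 libraries, and many miRNAs can share a value between 2 points.

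The denominator set the size of the stage difference, because the conserved miRNAs took up a much smaller share of P. Per 1000000 reads of conserved miRNAs, miR-451 stood at 83.9 in D and 748 in P, a log2 fold change of 3.16. On the same scale miR-144 went from 27.9 to 246, a log2 fold change of 3.14, and miR-486 from 67.9 to 319.9, a log2 fold change of 2.24. On this scale all 3 were above a log2 fold change of 1, but so were 36.2% of the 257 miRNAs, with 93 above 1 and 19 below -1.

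With TMM factors, which scale libraries on the bulk of their miRNAs, the log2 fold changes were 2.37 for miR-451, 2.36 for miR-144 and 1.45 for miR-486. There 8.95% of the miRNAs were above 1, with 23 above 1 and 52 below -1. With DESeq2 size factors the values were 2.47, 2.45 and 1.55 in the same order. In that case 11.7% were above 1, with 30 above 1 and 47 below -1. miR-486 therefore passed a log2 fold change of 1 on the miRNA-based scales and not on the scale of clean reads. No scale used here turned the direction of any of the 3. A change of scale moves all miRNAs by the same amount, and each of these raised the values, so no turn was possible.

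**Figure D2:**
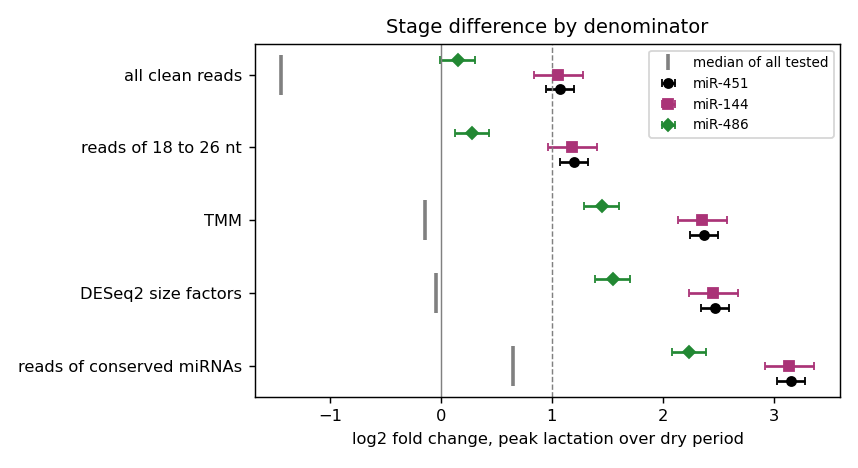
Log2 fold change, peak lactation over dry period (horizontal axis), of miR-451 (black), miR-144 (purple) and miR-486 (green) with each of the 5 denominators (vertical axis). Horizontal bars are 95% exact intervals, the dashed line is a log2 fold change of 1, and grey ticks are the median of all 257 miRNAs, which was not computed for reads of 18 to 26 nt. miR-451 and miR-144 lie together in each row, from about 1.1 with all clean reads to 3.16 and 3.14 with reads of conserved miRNAs, and miR-486 lies lower in each row.

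Ratios between the 3 miRNAs do not depend on the denominator. miR-144 had 0.332 reads per read of miR-451 in D (0.287 to 0.383) and 0.328 in P (0.298 to 0.362). These intervals overlapped almost fully, so a difference in this ratio was not detectable at this depth. miR-486 had 0.810 reads per read of miR-451 in D (0.727 to 0.902) and 0.427 in P (0.391 to 0.467). Against miR-144 the ratio of miR-486 was 2.44 (2.10 to 2.83) in D and 1.30 (1.16 to 1.46) in P. Both ratios of miR-486 were thus lower at peak lactation by more than the counting error. Reads were compared as molecules of similar length, and the yield of a library preparation differs between sequences, so a ratio within a library is not a ratio of molecules in the tissue.

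The 3′ ends of miR-451 formed a ladder that was alike in the libraries. Reads of 22 or 23 nt made up 82.9% of miR-451 in D and 81.5% in P. The steps of the ladder, which all begin at the same base and follow the hairpin to their last base, are shown next. Capitals mark what each step adds to the 18 nt that were required.
18 nt: aaaccguuaccauuacug
19 nt: aaaccguuaccauuacugA
20 nt: aaaccguuaccauuacugAG
21 nt: aaaccguuaccauuacugAGU
22 nt: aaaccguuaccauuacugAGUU
23 nt: aaaccguuaccauuacugAGUUU
24 nt: aaaccguuaccauuacugAGUUUA
25 nt: aaaccguuaccauuacugAGUUUAG
26 nt: aaaccguuaccauuacugAGUUUAGU
27 nt: aaaccguuaccauuacugAGUUUAGUA

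The 23-nt step, identical to the listed miRNA, held 473 reads in D, which is 62.1% of miR-451, and 1029 reads in P, which is 60.7%. The 22-nt step was next, with 151 and 343 reads. The 24-nt step, 1 base further along the hairpin, held 48 and 110 reads, and the 21-nt step held 25 and 51. The steps on either side thinned out quickly. There were 9 reads in D and 32 in P at 20 nt, 11 and 20 at 19 nt, and 11 and 36 at 18 nt. On the long side there were 10 and 25 reads at 25 nt, 9 and 17 at 26 nt, and 1 read in each library at 27 nt.

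Taking all miR-451 reads of a length together, each length from 18 to 26 nt was more abundant per clean read at peak lactation. Reads of 23 nt had a log2 fold change of 1.04 (0.88 to 1.20), those of 22 nt 1.08 (0.80 to 1.36), and those of 24 nt 1.10 (0.62 to 1.60). The rarer lengths ranged from 0.77 at 26 nt, with 10 reads in D and 18 in P, to 1.84 at 20 nt, with 9 and 34 reads. The intervals at 19 and 26 nt included 0, and those of all 9 lengths held the value of 1.07 found for miR-451 as a whole. The stage difference was therefore not carried by 1 length.

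Reads longer than the listed 23 nt made up 9.71% of miR-451 in D (7.70 to 12.0%) and 10.1% in P (8.69 to 11.6%). Reads of 18 to 20 nt made up 4.07% and 5.31%. Both pairs of shares differed by less than their counting error. The mean length was 22.7 nt in each library, and the peak lactation value was lower by only 0.04 nt. Among the 143 miRNAs with at least 100 reads in each library, this difference ranked 100 from the highest, between quartiles of -0.04 and 0.06 nt.

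**Figure D3:**
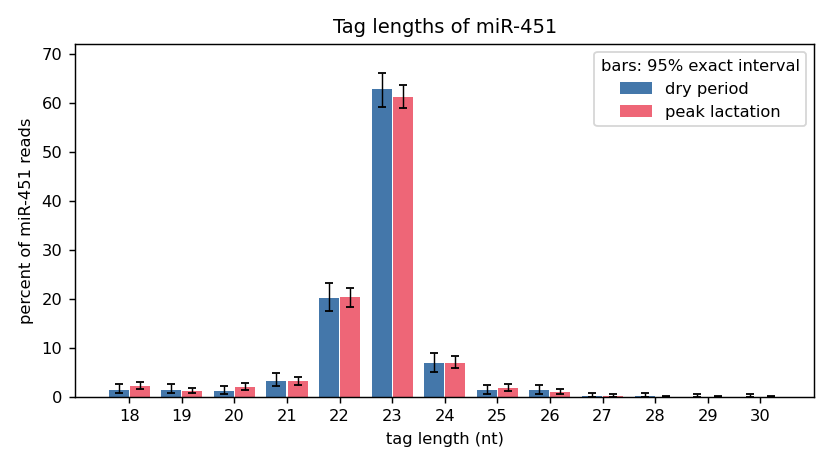
Share of miR-451 reads (percent, vertical axis) at each length from 18 to 30 nt (horizontal axis) in D (dry period, blue) and P (peak lactation, red), with 95% exact binomial intervals. The peak at 23 nt is 62.7% in D and 61.2% in P, and at each length the intervals of the 2 libraries overlap.

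The ends of miR-451 followed the hairpin nearly without exception. Of the miR-451 reads, 748 of 762 in D (98.2%) and 1664 of 1696 in P (98.1%) matched the hairpin to their last base. Reads that matched the hairpin except for 1 added or changed last base numbered 3 in D and 13 in P. U was that base in 2 and 6 of them, A in 1 and 5, and C and G in 1 read each of P. None of the hairpin reads was longer than 27 nt, 0 of 762 in D and 0 of 1696 in P, which allows shares of up to 0.483% and 0.217%. A tag of 33 nt with 2 reads at peak lactation left the hairpin after base 20 and was counted for miR-451 only by its 5′ part. The libraries hold tags of 18 to 44 nt, and 14673054 reads of D and 14207033 of P were 18 to 26 nt long. Short RNA was selected before sequencing, and its part in the lack of longer forms was not tested.

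Among reads identical to the miR-451 hairpin over their whole length, none in either library began on the 3′ arm, and 1 in each library began on the 5′ arm at a base other than the mature start. In an ordinary miRNA precursor the opposite arm yields a second mature strand. For miR-144 and miR-486 the opposite arm was not analysed here, because no hairpin sequence was used for them. Their reverse complements, read for at least 18 nt in a row, were found in 0 reads for miR-144 and in 1 read of D for miR-486. This search finds perfect complements only. An opposite strand that pairs with mismatches would escape it, so these counts do not show whether the opposite arms were present.

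Compared with other miRNAs, the length measures of miR-451 did not all point the same way. Its share at the commonest length was 62.7% in D and 61.2% in P, rank 33 and rank 38 from the highest among 143 miRNAs, for which the medians were 48.9% and 49.7%. The upper quartiles of that share were 60.4% in D and 61.7% in P, so miR-451 lay just above in D and just below in P. The effective number of lengths, which is 1 when all reads have the same length, was 3.38 and 3.56 for miR-451, beside medians of 3.55 and 3.64. The standard deviation of its length was 1.11 nt in D and 1.23 nt in P, above the medians of 0.99 and 1.05 nt but within the quartiles.

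miR-144 was read mostly as a longer form than the one listed. Reads longer than the listed 19 nt made up 78.7% of miR-144 in D and 79.2% in P, and those identical to the listed sequence made up 13.4% and 13.8%. The commonest length was 22 nt, with 122 reads in D, 48.2%, and 293 reads in P, 52.6%. The main forms are shown because the listed sequence misses the end of most molecules, and capitals mark the bases after the first 18.
miR-144, 19 nt: uacaguauagaugauguaC
miR-144, 20 nt: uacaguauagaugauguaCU
miR-144, 21 nt: uacaguauagaugauguaCUC
miR-144, 22 nt ending in U: uacaguauagaugauguaCUCU
miR-144, 22 nt ending in A: uacaguauagaugauguaCUCA

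The 22-nt form ending in U held 100 reads in D (39.5%) and 238 in P (42.7%). The form of the same length ending in A held 20 reads (7.91%) and 46 reads (8.26%), and 1 ending in G held 1 and 5 reads. The order of these last bases was the same in the libraries, and their shares differed by less than the counting error. No hairpin of miR-144 was used, so which of the last bases is encoded and which was added afterwards was not tested. Above 22 nt there were 2 reads in D and 3 in P. The mean length was 20.9 nt in each library.

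miR-486 had the least uniform 3′ end of the 3 by the share at its commonest length. Its commonest length was the listed 21 nt, with 228 reads in D (37.0%) and 281 in P (38.8%), rank 123 and rank 120 of 143 miRNAs by the share at the commonest length. These forms are shown because together with the listed sequence they hold most reads of miR-486, and capitals mark the bases after the first 18.
miR-486, 21 nt: uccuguacugagcugcccCGA
miR-486, 22 nt: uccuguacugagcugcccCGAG
miR-486, 23 nt ending in U: uccuguacugagcugcccCGAGU
miR-486, 23 nt ending in A: uccuguacugagcugcccCGAGA

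The listed form held 36.1% of the reads in D and 37.7% in P. The form with 1 more G held 22.5% and 22.9%, that with GU 13.3% and 13.2%, and that with GA 8.59% and 6.07%. Reads shorter than the listed 21 nt made up 6.32% of miR-486 in D (4.53 to 8.54%) and 10.3% in P (8.22 to 12.8%). Reads longer than listed made up 56.7% (52.7 to 60.7%) and 50.9% (47.2 to 54.6%). Both pairs of intervals overlapped at their edges, which does not show that the shares were equal. No interval was computed for the difference of the shares.

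The mean length of miR-486 was 21.6 nt in P and 21.8 nt in D, a difference of -0.20 nt that ranked 139 of 143 from the highest, beside -0.04 nt for miR-451 and 0.07 nt for miR-144. By length, the log2 fold change of miR-486 was 1.39 (0.25 to 2.68) at 18 nt, 0.22 (-0.04 to 0.48) at 21 nt and -0.15 (-0.48 to 0.18) at 23 nt. The 18-nt value rests on 9 reads in D and 25 in P.

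**Figure D4:**
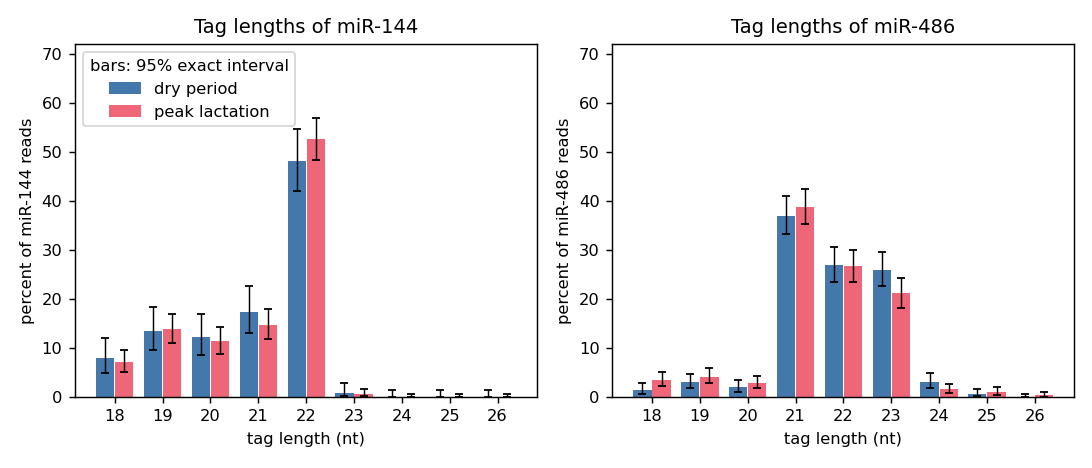
Share of reads (percent, vertical axis) at each length from 18 to 26 nt (horizontal axis) for miR-144 (left) and miR-486 (right) in D (dry period, blue) and P (peak lactation, red), with 95% exact binomial intervals. miR-144 peaks at 22 nt (48.2% and 52.6%), and miR-486 is spread over 21 to 23 nt, with 25.9% at 23 nt in D and 21.1% in P.

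The 5′ ends of all 3 were sharply defined. Among reads that held bases 4 to 18 of the listed sequence, those starting at the listed first base were 765 of 768 for miR-451 in D and 1702 of 1708 in P, 99.6% in each. For miR-144 they were 257 of 259 and 557 of 557, and for miR-486 629 of 633 and 738 of 741. The first 3 bases were not compared in this count. Reads identical from the listed first base numbered 762 and 1696 for miR-451, 253 and 557 for miR-144, and 617 and 725 for miR-486. Since the seed is counted from the 5′ end, nearly all reads of each miRNA carried the same seed in the libraries. The variation lay in the 3′ ends.

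Per clean read, other miRNAs known from red cells were all lower at peak lactation. A list of 16 such miRNAs, most of which other tissues also make, summed to 9152 RPM in D and 2940 RPM in P. None of the 16 had a log2 fold change above 1, 14 were below -1 and 2 lay between, and the median was -1.82 beside -1.44 over all 257 miRNAs. Over all 257, 1.17% were above 1 and 70.4% were below -1, so none above 1 among 16 is near the share over all. miR-16a, counted on a sequence that is also listed for miR-16b, had 10870 reads in D and 3697 in P. miR-92a had 10341 and 3130 reads, the same counts as the listed miR-92. miR-25 had 40513 and 6382 reads. The log2 fold changes of miR-92a and miR-25 were -1.81 and -2.75. The highest value of the list was that of miR-22-3p, at -0.65. Per 1000000 reads of conserved miRNAs the median of the list was 0.26, beside 0.64 over all, so its sign depends on the denominator.

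Reads of miR-451 per read of miR-23a, a ratio used in serum and plasma to grade the lysis of red cells, were higher at peak lactation. miR-23a had 17190 reads in D and 6910 in P, a log2 fold change of -1.40, near the median of -1.44 over all 257 miRNAs. The ratio therefore restates the change of miR-451, known when it was chosen, against a miRNA near that median. It is not a separate measure of blood. The log2 ratio of miR-451 to miR-23a was -4.50 (-4.60 to -4.39) in D and -2.03 (-2.10 to -1.95) in P. The level of the ratio depended on the counting rule: with identical tags only it was -3.75 in D and -1.50 in P, both outside those intervals. For miR-144 the log2 ratio was -6.09 and -3.63, and for miR-486 it was -4.80 and -3.25. In tissue, where other cells make miR-23a, the ratio has no scale of blood content.

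Markers of other cells in blood and in the gland were counted beside them. Muscle, where miR-486 is also abundant, had no list here, and its part in the counts of miR-486 was not tested. The 5 miRNAs of white cells summed to 497 RPM in D and 178 RPM in P, with 4 of 5 below a log2 fold change of -1 and none above 1. miR-223 of myeloid cells had 302 reads and 64 reads, a log2 fold change of -2.32, and miR-150 of lymphocytes had 422 and 337, one of -0.41. The endothelial pair miR-126 and miR-126* had log2 fold changes of -0.74 and -0.21. The 6 epithelial miRNAs summed to 2687 RPM and 1342 RPM, and 3 of them were below -1, with a median of -1.10. All of these lists were present in each library, and per clean read none held a miRNA above a log2 fold change of 1. Over all 257 miRNAs, 1.17% were above 1 and 70.4% were below -1, so none above 1 in lists this short is near the share over all. Per reads of conserved miRNAs the medians of these lists were above 0, at 0.44 for white cells, 1.61 for the endothelial pair and 0.98 for the epithelial list, beside 0.64 over all.

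Of the red cell miRNAs counted, only miR-451, miR-144 and miR-486 had more RPM at peak lactation, and the interval of miR-486 included 0. The 3 were chosen with their change known, and only 10 of all 257 miRNAs had a log2 fold change above 0. The summed level of the other 16 red cell miRNAs was lower per clean read, and the sign of their median change depended on the denominator. The amount of blood left in each gland, its share of red cells and the RNA content of those cells were not measured. Their part in the stage difference was not tested. The 1 pool of goats per stage cannot be told apart from the stage.

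**Figure D5:**
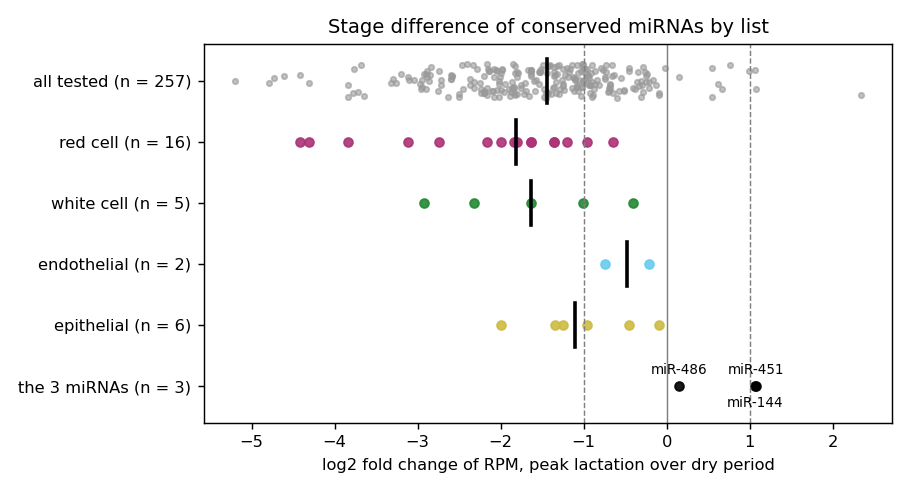
Log2 fold change of RPM, peak lactation over dry period (horizontal axis), of each miRNA in the cell type lists and of all 257 miRNAs tested (grey), with vertical black bars at the medians and dashed lines at -1 and 1. The 16 other red cell miRNAs lie between -4.42 and -0.65, miR-486 lies at 0.15, and miR-451 and miR-144 lie at 1.07 and 1.06.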

How the data were processed

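Small RNA of mammary gland RNA, pooled from 3 goats per stage, was sequenced as 1 library per stage, with base calling by CASAVA per the submitters' processing notes. The authors removed low-quality reads, adaptor contaminants and reads under 18 nt, collapsed identical reads and deposited each tag with its count of clean reads, without normalization or alignment. Counts summed to 14851375 and 15712891, and depth was the only source of error that could be given.

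A tag was assigned to the conserved miRNA, of the study's list made with miRBase 18, with which it was identical over the most bases counted from its start, with a minimum of 18. A tag that tied between listed miRNAs was counted for each of them, so the counts of miRNAs with a shared start can overlap. Counts were scaled to RPM, and a comparison took in miRNAs that reached 1 RPM at either stage, none of which had 0 reads in a library. Fold changes divide peak lactation by the dry period, on the log2 scale, with an interval from the exact (Clopper-Pearson) interval of the split of the reads. RPM intervals are exact Poisson intervals. The counting was tested on simulated tags without mismatches to the listed sequences, and returned 317 of 317 miRNAs as given. Listed miRNAs that share their first 18 nt with another were left out, so the test does not cover them. Mean lengths were compared over miRNAs with at least 100 reads in each library. TMM factors came from edgeR 4.0.16 and size factors from DESeq2 1.42.0 in R 4.3.3, used for scaling only. All else was done in Python 3.11.15 (scipy 1.17.1, numpy 2.4.6, matplotlib 3.10.9).

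The miRNAs and the cell type lists were chosen with earlier results of these data known. Named were the 3 miRNAs, list members with at least 100 reads in one library, and the 3 miRNAs with the nearest log2 fold change to each. Those next to the limit of 1 were named after their values were seen.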

Additional observations from a re-analysis of the deposited data

How the results depend on the processing

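The direction of the stage difference of miR-451, miR-144 and miR-486 was the same with each denominator and counting rule tried. Each denominator other than clean reads raised all values by the same amount, so none could turn a direction. Per clean read, the difference of miR-486 lay within its counting error. The size of the stage difference moved with the denominator. For miR-451 the log2 fold change was 3.16 per reads of conserved miRNAs, 2.37 with TMM, 2.47 with DESeq2 size factors and 1.20 per reads of 18 to 26 nt. For miR-144 the first 3 of these gave 3.14, 2.36 and 2.45, and for miR-486 they gave 2.24, 1.45 and 1.55. The number of miRNAs above a log2 fold change of 1 was 93, 23 and 30 in the same order, in place of 3. Other counting rules (identical tags, 20 nt, 1 mismatch, any offset, at least 2 reads) kept miR-451 between 1.04 and 1.07, miR-144 between 1.01 and 1.10 and miR-486 between 0.09 and 0.21. The log2 ratio of miR-451 to miR-23a was -3.75 (dry period) and -1.50 (peak lactation) with identical tags, and -4.13 and -1.82 with 20 nt. With each unique tag counted once, mean lengths moved by more than their counting error, except for miR-144 in the dry period. Leaving out ends that differ from the hairpin did not move the mean lengths of miR-451 beyond their counting error. For miR-144 and miR-486 only the listed sequence was used, which leaves out every longer read. Their mean lengths were therefore bound to fall, and the 3 cannot be compared by this rule.

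No paired analysis was possible because each stage has 1 pooled library, and no replicate could be left out. The search for fragments of globin and milk protein transcripts was not run, since no protein table was used here. The depth limits rare lengths: most steps of the miR-451 ladder outside 21 to 24 nt held fewer than 40 reads.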
